A study of Mus musculus with 10 samples.

Results

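The genes described here encode the proteins that carry the T cell receptor signal through its first steps: the kinases Lck, Fyn and Zap70, the adaptors Lat and Lcp2, and the effectors Plcg1, Vav1 and Prkcq. They were taken as every row of the array table that the platform annotation gives to exactly 1 of these 8 gene symbols. By that rule 7 of the 8 genes were measured, by 14 probe sets of the 45101 on the array. Lck, the Src family kinase bound to the coreceptors CD4 and CD8, had no row given to its symbol alone and was not analysed here. Fyn and Lcp2 had 2 probe sets each, Zap70 and Plcg1 3 each, Vav1 2, and Lat and Prkcq 1 each. All 14 lay above the limit under which the dimmest 30% of probe sets were left out of the tests.

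The arrays profiled T-ALL (T cell acute lymphoblastic leukemia) of mice, driven by ICN1, the intracellular, constantly active form of NOTCH1. Every leukemia on the arrays, in both groups, carried the ROSCreERT2 transgene, a Cre recombinase that tamoxifen switches on, and 2 floxed copies of CnB1, the gene of the calcineurin regulatory subunit (Ppp3r1). Once leukemic, secondary recipients received either tamoxifen, under which CnB1 is deleted (TAM, 5 arrays), or the carrier, corn oil (OIL, 5 arrays). Leukemic cells, over 50% of the marrow, were sorted by GFP or a like marker, and 200 ng of total RNA went onto each array. The OIL group therefore shares the transgene and the floxed alleles with the TAM group and differs in not having had the drug, so deletion and exposure to tamoxifen cannot be told apart in this design. No TAM group without the transgene or without the floxed alleles was analysed here. Each group holds 1 array with each label, 204, 206, F3, F3.1 and F3.2. The deposited names of the F3.1 and F3.2 arrays carry a further number, which differs between OIL and TAM and is left off here. The pairing of these arrays therefore rests on the shared part of the name. What the names stand for, and whether every array is a separate mouse, is not stated, so p-values measure the spread between these arrays.

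When a T cell receptor is engaged, Lck phosphorylates the CD3 and zeta chains, and Zap70 docks on them and is itself activated; Fyn can share in the first of these steps. Zap70 then phosphorylates the membrane adaptor Lat and the cytosolic adaptor Lcp2 (SLP76), which together hold Plcg1, Vav1 and other proteins in one complex. Plcg1 makes the second messengers that release calcium, which activates calcineurin and through it the NFAT factors, and diacylglycerol, which activates Prkcq (protein kinase C theta) and the route to NF-kB. The products of these genes thus act before calcineurin in the pathway or beside it. The comparison asks whether their RNA differed after tamoxifen, under which CnB1 is deleted.

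As calcineurin acts through NFAT, the sequence before the start of 4 of the genes is shown, to let the short core of the NFAT site be seen. The windows hold the 250 bases before the transcription start, 5' to 3' on the strand of the gene, from the RefSeq promoter table of build GRCm38.p6. Capitals mark GGAAA, the core that NFAT factors prefer, and GGAAG, a core of ETS factors, on either strand (TTTCC and CTTCC on the strand shown), and where 2 cores overlap the capitals run on. The windows are Plcg1 at chr2:160731060-160731309 (plus strand), Zap70 at chr1:36761548-36761797 (plus strand, the first of its 3 windows), Vav1 at chr17:57278850-57279099 (plus strand) and Prkcq at chr2:11172132-11172381 (plus strand).
Plcg1: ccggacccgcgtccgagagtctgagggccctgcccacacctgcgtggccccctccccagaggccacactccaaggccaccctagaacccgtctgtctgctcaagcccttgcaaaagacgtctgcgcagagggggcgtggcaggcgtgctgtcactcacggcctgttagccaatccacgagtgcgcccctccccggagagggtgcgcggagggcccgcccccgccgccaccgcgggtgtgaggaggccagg
Zap70: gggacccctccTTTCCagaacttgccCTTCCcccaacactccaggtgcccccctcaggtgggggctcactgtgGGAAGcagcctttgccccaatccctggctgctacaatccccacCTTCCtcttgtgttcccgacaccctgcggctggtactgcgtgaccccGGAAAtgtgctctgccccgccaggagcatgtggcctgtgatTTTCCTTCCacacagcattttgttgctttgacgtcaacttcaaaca
Vav1: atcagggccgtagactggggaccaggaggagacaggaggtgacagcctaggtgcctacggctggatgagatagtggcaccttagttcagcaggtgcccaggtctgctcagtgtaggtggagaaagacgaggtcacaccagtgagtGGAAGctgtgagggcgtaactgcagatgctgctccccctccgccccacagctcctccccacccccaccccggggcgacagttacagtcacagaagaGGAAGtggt
Prkcq: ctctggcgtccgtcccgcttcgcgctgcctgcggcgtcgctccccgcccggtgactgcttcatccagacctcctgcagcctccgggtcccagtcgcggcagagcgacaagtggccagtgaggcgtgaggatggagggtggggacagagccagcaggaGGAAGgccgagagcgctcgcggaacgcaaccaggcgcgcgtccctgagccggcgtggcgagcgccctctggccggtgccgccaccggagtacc
Neither core was present in the Plcg1 window, which was 71.2% G and C. The Zap70 window held 3 copies of GGAAA and 4 of GGAAG, the Vav1 window 2 of GGAAG alone, and the Prkcq window 1 of GGAAG alone. The other windows of Zap70, not shown, held no GGAAA, and the Fyn window, not shown, held neither core. Among the 11 windows that the table lists for the 8 genes, 4 held GGAAA, each of a different gene, and 8 held GGAAG. Of all 32817 windows of this length in the table, 55.6% held GGAAA and 64.1% held GGAAG, so cores this short are common. A match is a description of these letters and not a measured site, and a window without one says only that these letters are not in it.

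The study as a whole can be described in few numbers. The array medians lay between 5.07 and 5.13 on the deposited log2 scale, on which a step of 1 is a 2-fold change. Of the 2 probe sets of Ppp3r1, the deleted gene, 1421786_at read 5.32 ± 0.58 (SD, n = 5) in OIL and 3.26 ± 0.21 in TAM, with no overlap, whereas 1433591_at read 9.80 ± 0.086 and 9.67 ± 0.043. The place of these probe sets relative to the deleted part was not known here. The mean log2 level of 9 T cell marker genes lay between 10.92 and 11.32 in OIL and between 11.01 and 11.31 in TAM, which fits the labelled cell type. The mean level over B cell, erythroid, platelet and NK markers stayed between 3.77 and 5.04 on every array. The 11 myeloid markers lay between 4.97 and 6.41 in OIL and between 5.44 and 6.96 in TAM, with S100a8 between 5.06 and 10.07 over the arrays; no single one of them was called different. In sorted bulk RNA, a change in the share of a cell type and a change in RNA per cell cannot be told apart, and the part of the myeloid transcripts in the values below was not tested.

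No treatment difference was detected for any of these genes. None of the 14 probe sets and none of the 7 genes passed a limma test of TAM against OIL at an adjusted p under 0.05, where 0.102% of all 31526 probe sets and 0.471% of all 12735 genes did. With the replicate label as a block, which removes the difference between labels, again 0 of the 14 probe sets and 0 of the 7 genes passed, against 1.8% of all probe sets and 3.38% of all genes. With background shares this low, a count of 0 does not set these genes apart from the rest of the array. The median difference over the 14 was -0.029 and the median size 0.098, beside -0.019 and 0.10 over all probe sets tested. Unadjusted p-values under 0.05 were reached by 1 of the 14 probe sets without the block and 2 with it, where 10.9% and 20% of all probe sets reached them, and by 0 and 1 of the 7 genes, where 13.0% and 22.4% of all genes did. The intervals give the size of what could have been missed: the widest 95% interval reached 0.65 from zero, for Plcg1.

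**Figure D1:**
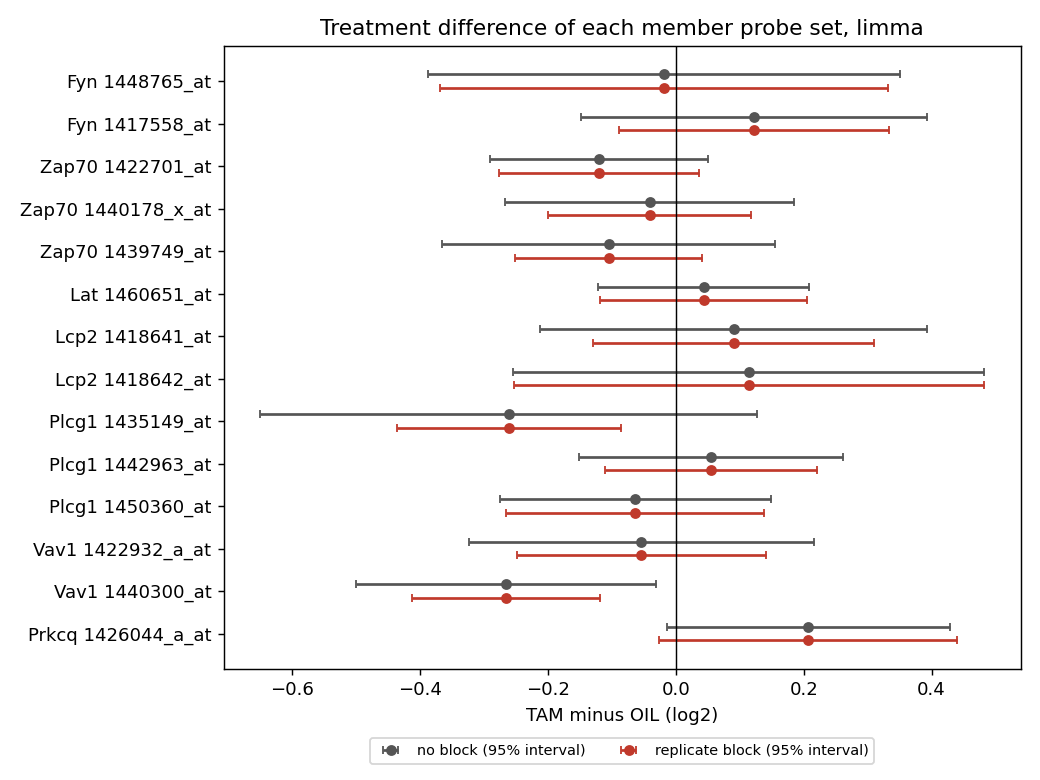
TAM minus OIL on the log2 scale for each of the 14 probe sets, with 95% intervals from limma without a block (grey) and with the replicate label as a block (red), 5 arrays a group. Differences run from -0.27 (Vav1 1440300_at) to 0.21 (Prkcq), and the intervals of Plcg1 1435149_at and Vav1 1440300_at are narrower with the block.

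Among the kinases, Fyn is a Src family kinase of T cells and other tissues, and its 2 probe sets gave different pictures. On 1448765_at, its brightest, the OIL arrays read 9.21 (label 204), 9.13 (206), 9.94 (F3.1), 9.84 (F3.2) and 9.85 (F3), and the TAM arrays 9.72, 9.48, 9.49, 9.69 and 9.50 in the same order of labels. The 3 OIL arrays of the F3 labels were above every TAM array and the other 2 OIL arrays below every one, so the groups overlapped fully and OIL was the more spread, with an SD of 0.39 against 0.12. The means were 9.59 and 9.58, a difference of -0.018 (95% interval -0.39 to 0.35, adjusted p = 0.981). On 1417558_at the OIL arrays read 9.35, 9.20, 9.56, 9.46 and 9.86 and the TAM arrays 9.67, 9.38, 9.60, 9.73 and 9.65. Here TAM was higher within 4 of the 5 labels, but the groups overlapped, and the difference of 0.12 (-0.15 to 0.39, adjusted p = 0.762) was smaller than the SD of 0.25 in OIL. The 2 probe sets moved together over the 10 arrays with a Pearson r of 0.69.

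Zap70 is the Syk family kinase that docks on the phosphorylated receptor and then phosphorylates the adaptors. Its brightest probe set, 1422701_at, read 10.33, 10.14, 10.41, 10.41 and 10.23 in OIL (204, 206, F3.1, F3.2, F3) and 10.07, 10.17, 10.25, 10.28 and 10.14 in TAM. TAM was lower within 4 of 5 labels, and the ranges overlapped between 10.14 and 10.28. The difference was -0.12 (-0.29 to 0.051), with an adjusted p of 0.609, or 0.355 with the block, and a two-sided exact permutation p of 0.111. The permutation test, here and below, does not use the labels, so the spread between labels counts in it. The other 2 probe sets had smaller differences, -0.11 for 1439749_at (8.09 ± 0.17 in OIL, 7.99 ± 0.21 in TAM) and -0.041 for 1440178_x_at (9.50 ± 0.13 and 9.46 ± 0.19). All 3 thus leaned the same way without passing the test, and they followed each other over the arrays with r between 0.71 and 0.74.

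Of the adaptors, Lat, the membrane scaffold that Zap70 phosphorylates, had the narrowest range over the arrays of the 14 probe sets. Its single probe set, 1460651_at, read 11.88, 11.64, 11.72, 11.82 and 11.94 in OIL and 11.83, 11.90, 11.75, 11.82 and 11.91 in TAM. The TAM range lay wholly within the OIL range, and the difference was 0.044 (-0.12 to 0.21, adjusted p = 0.875). That interval excludes a change of more than 0.21 in either direction under this fit.

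Lcp2 is the cytosolic adaptor that brings Vav1 to Lat. On 1418641_at the OIL arrays read 10.15, 9.70, 9.79, 9.62 and 10.25 and the TAM arrays 9.87, 9.95, 10.01, 9.87 and 10.27. TAM was higher within 4 labels, by 0.023 to 0.25, and lower in label 204, with a pair difference of -0.28. The mean difference was 0.090 (-0.21 to 0.39, adjusted p = 0.855). The dimmer 1418642_at gave the same pattern over the labels: 6.85, 6.61, 6.48, 6.02 and 6.83 in OIL and 6.32, 6.63, 6.77, 6.72 and 6.91 in TAM, with a difference of 0.11 (-0.25 to 0.48, adjusted p = 0.848). The lowest of its 10 values, 6.02, was the OIL array of F3.2. The 2 probe sets correlated at r = 0.81, the closest of any pair of probe sets of 1 of these genes.

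Plcg1, the phospholipase that makes the messengers for calcium release and Prkcq, had the largest difference of any gene's brightest probe set. On 1435149_at the OIL arrays read 9.54, 9.23, 9.95, 10.11 and 9.56 and the TAM arrays 9.26, 9.23, 9.60, 9.76 and 9.22. Within 4 labels TAM was lower, by -0.28 to -0.35, and in label 206 both arrays read 9.23. The groups overlapped because labels differed by more than treatment did, and the mean difference of -0.26 (1.2-fold lower, 95% interval -0.65 to 0.13) had an adjusted p of 0.627 and an exact permutation p of 0.230. With labels as a block the interval was -0.44 to -0.086 with an adjusted p of 0.125, so the call was not made. The other 2 probe sets of Plcg1, 1442963_at and 1450360_at, were dim, with means of 4.70 and 4.39, and differed by 0.055 and -0.063. Their correlations with 1435149_at were 0.13 and 0.45, so the label pattern of the bright probe set is not one that they share.

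Vav1, the exchange factor that links the receptor to Rac and the cytoskeleton, was measured by 2 probe sets that did not follow each other (r = -0.21). On 1440300_at the OIL arrays read 7.13, 7.16, 7.45, 7.52 and 7.27 and the TAM arrays 6.90, 7.01, 7.13, 7.28 and 6.90. TAM was lower within all 5 labels, by -0.16 to -0.37, although the groups overlapped between 7.13 and 7.28. The difference was -0.27 (1.2-fold lower, -0.50 to -0.030), with an unadjusted p of 0.0305 and an exact permutation p of 0.0476, where the smallest that 5 against 5 can give is 0.00794. It did not pass over all probe sets, with an adjusted p of 0.404 without the block and an adjusted p of 0.0843 with it. On 1422932_a_at, the brighter, the OIL arrays read 7.80, 7.89, 7.67, 7.62 and 8.17 and the TAM arrays 7.76, 7.74, 7.51, 7.88 and 7.99. That is a difference of -0.054 (-0.32 to 0.22, adjusted p = 0.912), with 4 of 5 labels lower. The 2 probe sets share the direction and not the order of the labels: F3 was the highest label on 1422932_a_at (8.08) and F3.2 on 1440300_at (7.40).

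Prkcq, the protein kinase C isoform of the T cell synapse, was the only member whose brightest probe set had 1 sign in all 5 labels. Its probe set, 1426044_a_at, read 10.09, 9.70, 10.09, 9.98 and 9.92 in OIL and 10.17, 10.36, 10.25, 10.07 and 9.97 in TAM. The pair of label 206 differed by 0.65 and the other 4 by 0.057 to 0.16, so the mean of 0.21 (1.15-fold higher, -0.014 to 0.43) was drawn up by 1 label. The adjusted p was 0.483, or 0.296 with the block, and the exact permutation p was 0.0794. Without the pair of label 206, in the fit with the block, the difference was 0.096.

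**Figure D2:**
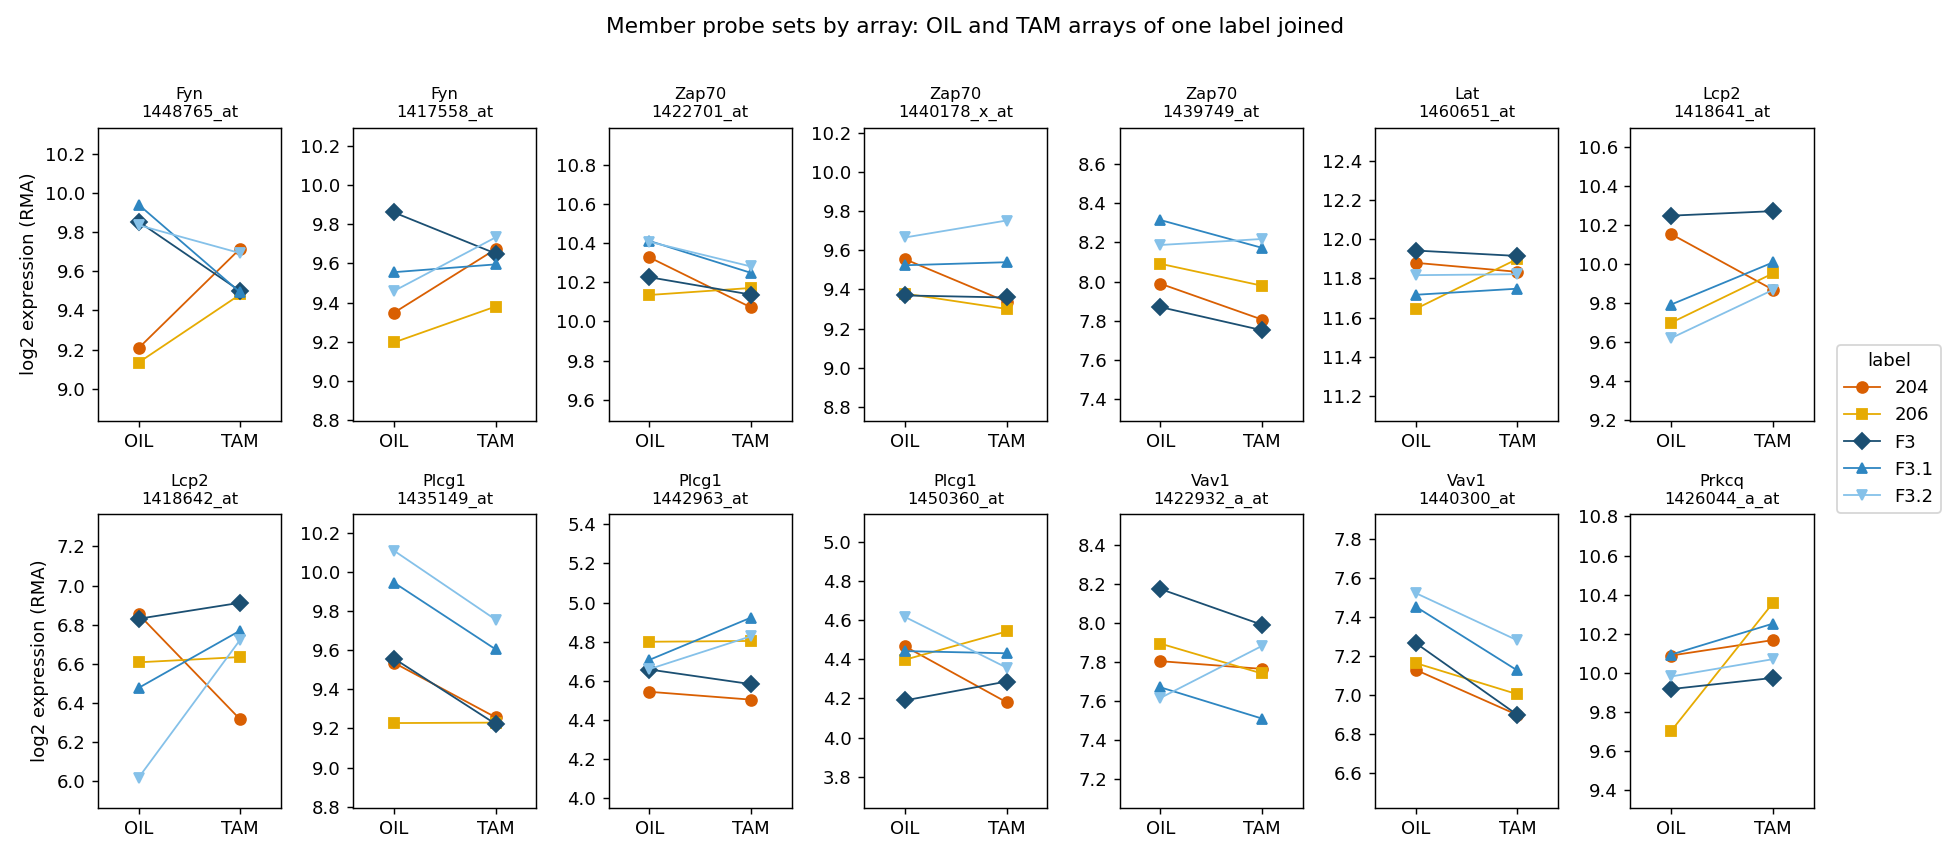
Log2 expression of each of the 14 probe sets on every array, with the OIL and TAM arrays of 1 label joined by a line, over the same span of log2 units in every panel. The TAM point is below the OIL point on all 5 lines of Vav1 1440300_at and above it on all 5 of Prkcq, while the lines of Fyn 1448765_at cross, with 204 and 206 higher in TAM and the F3 labels lower.

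Read over all 14, 2 probe sets (Vav1 1440300_at and Prkcq) had 1 sign in all 5 labels, where 19.7% of all probe sets tested did. No member had TAM and OIL arrays that did not overlap, where 2.51% of all probe sets had. By these counts, too, the members were not set apart from the rest of the array.

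The label took a larger share of the variance than treatment did in every member probe set but that of Prkcq. The label accounted for 76.4% of the variance of Plcg1 1435149_at and treatment for 18.6%, and for 87.4% and 8.56% of that of Zap70 1439749_at. In the median over all probe sets tested, the label took 59.1% and treatment 9.0%. Vav1 1440300_at, with 43.6% for treatment and 53.0% for label, and Prkcq, with 35.8% and 21.7%, had the largest treatment shares. These shares describe 10 arrays, in which 5 labels take up 4 degrees of freedom and treatment takes 1.

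In a limma F test over the 5 labels with treatment as a term, Plcg1 1435149_at was the 1 probe set of 14 called (adjusted p = 0.0275), where 11.1% of all probe sets were called. In the fit over genes it was the 1 of 7 (adjusted p = 0.0270), where 10.6% of all genes were called. The share of members is thus near the background. Its label means were 9.40 for 204, 9.23 for 206, 9.39 for F3, 9.78 for F3.1 and 9.93 for F3.2, so F3.1 and F3.2 stood above the others and F3 stood at the level of 204. Zap70 1439749_at and Vav1 1440300_at had unadjusted p-values of 0.0109 and 0.0234 and did not pass (adjusted p = 0.0741 and 0.114). In both, F3.1 and F3.2 were again the highest labels: 8.24 and 8.20 for Zap70 beside 7.81 to 8.03 for the others, and 7.29 and 7.40 for Vav1 beside 7.01 to 7.08. The call for Plcg1 in the probe-set fit was lost when any 1 of 7 arrays was left out (OIL 204, OIL 206, OIL F3.1, OIL F3, TAM 204, TAM F3.1 or TAM F3), with adjusted p between 0.0315 and 0.0868 over the 10 omissions.

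**Figure D3:**
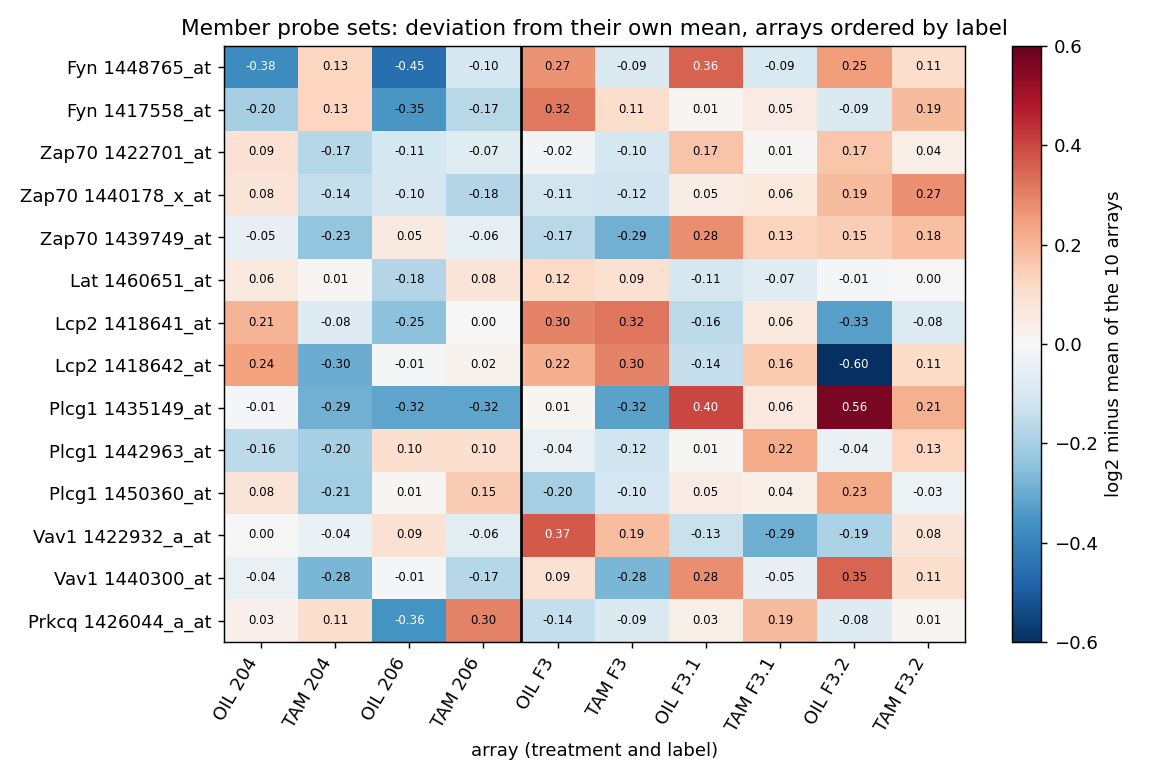
Each probe set's log2 value minus its own mean over the 10 arrays, with arrays ordered by label and the line between 204, 206 and the F3 labels. Plcg1 1435149_at runs from -0.32 to 0.56 with its highest values in F3.1 and F3.2, and Fyn 1448765_at is lowest in the OIL arrays of 204 and 206.

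The names of 3 labels share F3, and the split of 204 and 206 from those 3 is known from earlier results of these data as the main split of the arrays. Across that split Plcg1 1435149_at was lower in 204 and 206, at 9.31 ± 0.15 (SD, 4 arrays) against 9.70 ± 0.31 (6 arrays), a difference of -0.39 (95% interval -0.57 to -0.21, adjusted p = 0.0158). It was the 1 probe set of 14 and the 1 gene of 7 called, where 14.6% of all probe sets and 18.3% of all genes were. With the 5 label means as the samples, 2 against 3, the same difference had an adjusted p of 0.408. In the probe-set fit the call was lost without OIL 204, OIL 206, OIL F3.1, OIL F3 or TAM 204, with adjusted p between 0.0164 and 0.0702 over the 10 omissions. In the gene fit it was lost without OIL 204 or TAM 204. The arrays of the families overlapped through TAM F3 alone, which read 9.22. OIL F3, at 9.56, lay just above the highest array of 204 and 206, at 9.54. No member had families that did not overlap, where 8.85% of all probe sets had.

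Both probe sets of Fyn were lower in 204 and 206, by -0.24 for 1417558_at (adjusted p = 0.127) and by -0.33 for 1448765_at (adjusted p = 0.195), and so was Vav1 1440300_at, by -0.21 (adjusted p = 0.0720); none of these passed. Over the 14 probe sets 12 were lower in 204 and 206, with a median of -0.086, beside a median of -0.011 over all probe sets. The 14 belong to 7 genes and are not independent. The share of all probe sets that were lower was not counted, so no shift of the members as a group is shown. Lat, Prkcq and the brighter Vav1 probe set differed across the split by -0.012, 0.031 and -0.0061.

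Whether the treatment difference itself differed across that split was tested as an interaction, which called 0% of all genes and 0% of all probe sets, members included; 2 of the 14 and 5.2% of all probe sets had an unadjusted p under 0.05. Among members Fyn 1448765_at had the smallest p. TAM minus OIL was 0.51 in label 204 and 0.35 in 206 but -0.45 in F3.1, -0.14 in F3.2 and -0.36 in F3, means of 0.43 and -0.32. The difference of 0.74 between them (95% interval 0.38 to 1.11) had an unadjusted p of 0.00217 and an adjusted p of 0.866. On its other probe set the pair differences were 0.33, 0.18, 0.040, 0.27 and -0.21, which do not separate the labels in that way, and the interaction was 0.22. Lcp2 1418642_at had the opposite interaction, -0.62 (unadjusted p = 0.0432, adjusted p = 0.941), with pair differences from -0.54 in 204 to 0.71 in F3.2.

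How the members varied together is given as a description over 10 arrays that share labels in pairs. By their brightest probe sets, Zap70 and Plcg1 followed each other most closely, at r = 0.92, and both were highest in F3.1 and F3.2. Lat and Lcp2, the adaptor pair, had r = 0.71, with F3 the highest label for each, and Fyn and Plcg1 r = 0.61. The lowest of the 21 correlations was -0.54, between Vav1 and Prkcq. Zap70 with Lcp2 had -0.28 and Plcg1 with Lcp2 -0.41, so the members did not vary over these arrays as 1 group.

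Among all other genes tested, those whose levels were most like each member over the 10 arrays were, by Pearson r, Fbrsl1 (0.96) and Wwp2 (0.92) for Fyn, and Hibadh (0.97) and Treml1 (0.95) for Zap70. For the adaptors they were Rrm2b (0.89) and Tmem128 (0.87) for Lat, and Pced1a (0.93) and Tmc6 (0.91) for Lcp2. For the effectors they were Cog1 and Ciz1 (both 0.96) for Plcg1, Stat3 and Tia1 (both 0.94) for Vav1, and Gna13 (0.92) and Etv5 (0.90) for Prkcq. With 12735 genes to choose from and 10 arrays, values of this size are the extremes of a large search. After subtraction of label means, where only 5 pair differences remain, none of these 14 genes was among the most alike; Smyd4 was nearest to Plcg1 and Flcn to Vav1 (r = 0.999 and 1.00).

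**Figure D4:**
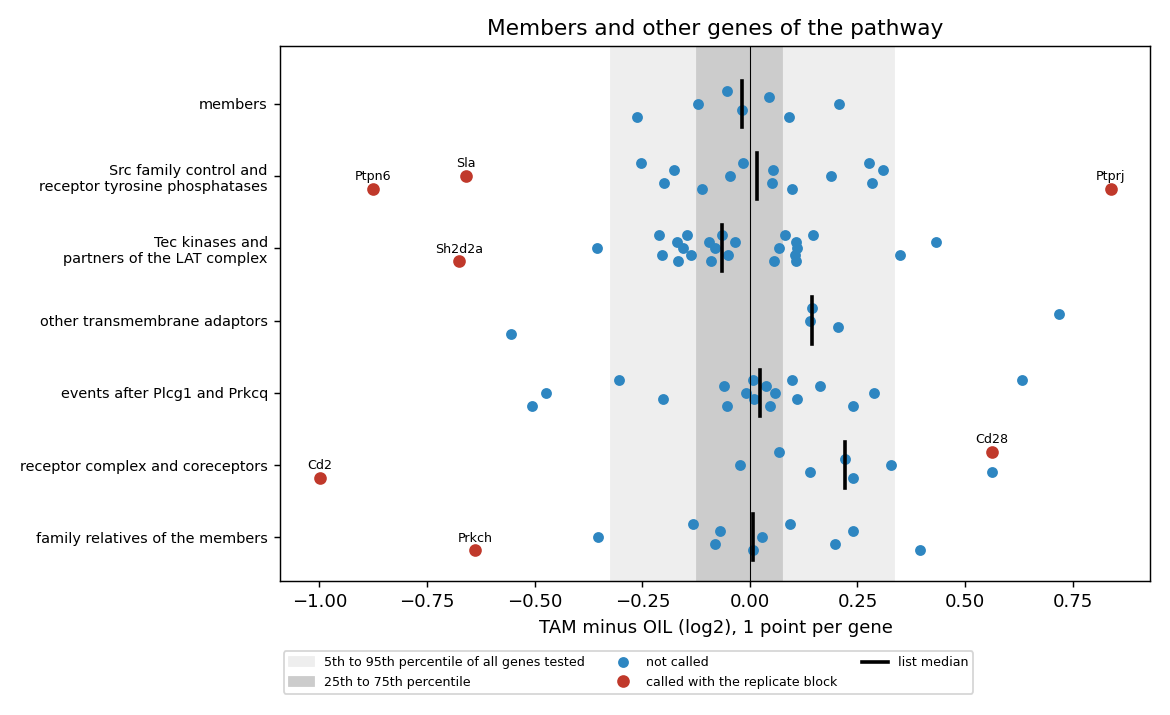
TAM minus OIL on the log2 scale for the 7 members and for the genes of 6 further lists of the pathway, 1 point per gene, with the list median as a black bar and the 25th to 75th and 5th to 95th percentiles of all genes tested as grey bands. All 7 members lie between -0.26 and 0.21, inside the wider band. The 7 genes of the other lists that were called with the replicate block lie outside it, as do some genes that were not called.

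The other genes of the pathway put these small differences in context. In the fit over genes without the block, none of the genes in the 6 lists was called, as among the members, where 0.471% of all genes were. At an unadjusted p under 0.05 stood 6 of 16 Src control genes, 3 of 25 Lat partners, 1 of 5 other adaptors, 3 of 18 later genes, 3 of 9 receptor genes and 1 of 11 relatives, beside 0 of 7 members and 13.0% of all genes. The calls below were made with the replicate block, under which 3.38% of all genes were called. Of the 16 genes that restrain Src family kinases or remove phosphate at the receptor, 8 were higher and 8 lower in TAM, with a median of 0.017. With the block 1 was called higher, Ptprj (0.84, adjusted p = 0.0224), a receptor tyrosine phosphatase. In the same fit 2 were called lower: Ptpn6 (-0.88, adjusted p = 0.0366), the phosphatase SHP1, and Sla (-0.66, adjusted p = 0.0389), an adaptor that lowers receptor levels. Ptprj also differed across the label split, by -0.94, and was dim in OIL, at 4.89 ± 0.68 against 5.73 ± 0.37 in TAM, beside the gene limit of 4.59.

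Of 25 Tec kinases and partners of the Lat complex, 10 were higher and 15 lower, with a median of -0.065, and 1 was called with the block. That was Sh2d2a, a T cell adaptor that binds Lck, which was lower by 0.68 on the log2 scale (TAM minus OIL -0.68, adjusted p = 0.0184 with the block; without it the value was 0.050, just above the threshold). It was lower within all 5 labels. The 5 other membrane adaptors tested had a median of 0.14, with 4 higher and none called. The 18 genes that act after Plcg1 and Prkcq had a median of 0.023, with 11 higher and none called.

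Among 9 genes of the receptor complex, its coreceptors and costimulators, 7 were higher and the median was 0.22, where 5218 of all 12735 genes were higher. Of the receptor chains themselves, Cd3d, Cd3e, Cd3g and Cd247 differed by -0.023, 0.33, 0.14 and 0.24, and none was called with the block (adjusted p = 0.0897 for Cd3e, the smallest of these). With the block Cd28, the costimulatory receptor, was called higher (0.56, adjusted p = 0.0348) and Cd2, an adhesion receptor, lower (-1.0, adjusted p = 0.0271). Of 11 relatives of the members from the same protein families, some of which T cells also use, 6 were higher and 5 lower with a median of 0.0069. Prkch, a protein kinase C isoform related to Prkcq, was called lower with the block (-0.64, adjusted p = 0.0249). Each of these 7 genes had 1 sign in all 5 labels, and each had a larger difference than any member. They were picked because they were called with the block, which favours both traits, so this does not set the members apart. Over all genes tested the median was -0.031 and the median size 0.10, while the median size over the 7 members was 0.090.

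Across labels, 3 of the 16 Src control genes, 3 of the 25 Lat partners, 1 of the 5 other adaptors and 1 of the 18 later genes were called in the F test. No gene of the receptor and coreceptor list or of the relatives was, beside 1 of the 7 members and 10.6% of all genes. Plcg1 was thus the single member whose level was called different between labels.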

How the data were processed

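Total RNA of 10 samples was amplified and labelled with biotin and hybridised, 1 array a sample. The deposited values are log2 expression per probe set, and RMA is the tool in the submitters' processing notes; its version and annotation are not given in the sources used here. They were used as deposited. Of 45101 probe sets 64 were controls. Of the others, the platform annotation gave 34945 1 symbol, 932 several and 9160 none. Of those with 1 symbol, 34741 were matched to RefSeq by Entrez identifier and the rest kept the platform symbol. Together they gave 18193 genes. For each gene the probe set of highest mean was taken; the lowest 30% by mean were left out, at a log2 limit of 4.59 for genes and 4.04 for probe sets.

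Tests were limma 3.58.1 (R 4.3.3; lmFit, eBayes), Benjamini-Hochberg adjusted over all 12735 genes or, separately, over all 31526 probe sets, with a call at adjusted p under 0.05. Residual degrees of freedom were 8 without a block, 4 with it and 3 in the interaction fit. Exact permutation tests used scipy 1.17.1 and were two-sided. They exchanged arrays between the groups without regard to label, so they are not tests of the pair differences. Arrays with the same label deviated together (r over genes 0.76 for 204, 0.75 for 206, 0.80 for F3, 0.58 for F3.1 and 0.18 for F3.2). All were above the limit of 0.1, so labels were treated as pairing the arrays. Arrays of different labels were not compared in this way, so these values do not show that same-label arrays are more alike than others. Counts of calls are therefore given with the block and without it. The number of arrays limits the precision; depth has no equivalent here. Scripts were tested on simulated data.

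The members, gene lists and markers were chosen with earlier results of these data known. Named genes are all members, every gene of the other lists called without or with the block (up to 4 a direction), and the 2 genes most like each member. Alternatives covered the block, filters, normalization, moderation, array weights, the probe set of a gene, and omission of each array; omission of label pairs from the blocked TAM against OIL fit, and of single arrays from the label test, was added after the data were seen.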

Additional observations from a re-analysis of the deposited data

Results flagged for a closer look

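One result was flagged because every pair of arrays moved 1 way in some labels and the opposite way in the others. This flag rests on signs alone. The share of all probe sets with such signs was not counted, so the pattern is not shown to be unusual. Fyn 1448765_at was higher in TAM in labels 204 and 206 and lower in F3, F3.1 and F3.2, and the treatment differences of these families differed by 0.74 on the log2 scale. The test of that difference in limma gave an adjusted p of 0.866 over all probe sets, and the other probe set of Fyn did not show the pattern. When each label was left out in turn, the difference lay between 0.66 and 0.83. As the probe set was picked by the signs of its pairs, these omissions could not have reversed the difference. None of the 28 sets of 5 arrays (14 probe sets, 2 groups) held a value far from the other 4 by Dixon's test, which would mark about 1 in 20 by chance.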

How the results depend on the processing

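No member was called in TAM against OIL under any of the alternatives run, whether over genes or over probe sets, the replicate block included: the count was 0 in each, also when any array (genes and probe sets) or label pair (probe sets, with the block) was left out. Fyn 1448765_at, near zero, changed sign in 9 of 15 omissions of an array or label pair; it turned to 0.056 with the OIL arrays of F3.1 and F3.2 as 1 sample, and Fyn to 0.052 with the mean of its probe sets. With arrays or label pairs left out, Fyn 1448765_at ranged from -0.15 to 0.090, Zap70 1440178_x_at from -0.11 to 0.0034 and Lat from -0.0094 to 0.079. In the same omissions Lcp2 1418642_at ranged from -0.034 to 0.28 and Vav1 1422932_a_at from -0.13 to 0.032. With the mean of all its probe sets, Plcg1 differed by -0.090 and Vav1 by -0.16. Over all features, the alternatives called 10 to 728 genes (60 in the fit reported) and 11 to 830 probe sets (32). Omissions of an array from the fit without the block called 8 to 54 genes and 11 to 43 probe sets. Omissions of a label pair from the fit with the block called 70 to 709 probe sets, beside 568 in that fit with all arrays. Between labels, a further quantile normalization called 3 member probe sets in place of 1 (3263 of all probe sets), adding Zap70 1439749_at (adjusted p = 0.0381) and Vav1 1440300_at (0.0463), and left the count of genes at 1; omissions gave 0 to 2, and 475 to 2314 of all genes and 1432 to 6394 of all probe sets. Across the label split, label means as samples called 0 members, 331 genes and 276 probe sets, and omissions gave 0 to 1 members (in the gene fit 0 only without OIL 204 or TAM 204), 1186 to 2996 genes and 2221 to 6754 probe sets. The interaction called 0 members in every omission and 0 to 1 of all features. The causes of these shifts were not tested. With 5 arrays a group the 95% intervals of TAM minus OIL for single members reached up to 0.65 from zero. That of Vav1 1440300_at left out zero without the block (-0.50 to -0.030) and with it (-0.41 to -0.12). That of Plcg1 1435149_at left out zero only with the block (-0.44 to -0.086). These intervals are not adjusted for the number of probe sets, and neither probe set passed the adjusted test.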
